A study of Mus musculus with 14 samples.

Results

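Mammary tumours from Brg1+/- mice, 12 in all, were ranked by how strongly they expressed fibrillar collagen, and the collagen-rich end of that order was set against the collagen-poor end. The tumours were selected on the mean log2 ratio of 4 genes, Col1a2, Col5a1, Col5a2 and Fap. The 4 highest of the 12 tumours (T176, T646, T221 and T372) formed the collagen-rich group and the 4 lowest (T284, T920, T2134 and T172) the collagen-poor group, so 8 of 12 tumours were compared. The other 4 (T135, T2023, T160 and T55) lay between and entered neither group.

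All 12 tumours carried the same genotype, heterozygous loss of Brg1, the gene also named Smarca4, which encodes the motor subunit of SWI/SNF chromatin remodellers. No wild-type tumour or normal mammary tissue was compared, and the labels give no treatment or age. All tumour names carry the word MIXED, whose meaning the labels do not state, and no strain is named. Each of 14 two-colour arrays set Cy5-labelled tumour RNA against one Cy3-labelled mouse reference RNA. T172 and T284, both collagen-poor, had 2 arrays each, which were averaged, and every other tumour had 1. The second array of each is labelled biorep, and the labels do not say what it repeats. Values are log2 ratios of tumour over reference, so 1 unit is a doubling. The labels do not state that each tumour is from its own animal, and p-values measure the spread between these samples, which may in part be technical. In bulk tissue, a smaller number of cells of a type and less RNA in each such cell cannot be told apart.

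Fibrillar collagens are secreted as procollagens, trimmed by proteases outside the cell and cross-linked by lysyl oxidases into fibres. In a carcinoma they are made mainly by fibroblasts of the stroma, and tumour cells with mesenchymal features can make them too. Col1a2 encodes a chain of type I collagen, Col5a1 and Col5a2 encode chains of type V collagen, which sets fibre diameter, and Fap encodes a cell-surface protease of activated fibroblasts.

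The 4 scored genes had 1 probe each and are given as a description, because they chose the groups. The score was 2.14 in T176, -0.40 in T646, -1.13 in T221 and -1.29 in T372. It was -2.83 in T284, -3.05 in T920, -3.28 in T2134 and -3.36 in T172. T176 stood 2.54 above the next tumour, more than the whole distance from T646 to the highest collagen-poor tumour, and it alone lay above the reference for all 4 genes. The boundary of the collagen-rich group was narrow. T372, just inside, scored -1.29 and T135, just outside, -1.36, whereas T55, just outside the collagen-poor group, scored -2.50 against -2.83 for T284. Col1a2 measured 2.17, -0.51, -0.98 and -1.21 in T176, T646, T221 and T372, and -2.92, -3.85, -3.08 and -3.28 in T284, T920, T2134 and T172. Fap measured 2.82, 0.16, -1.24 and -1.06 in the collagen-rich tumours and -2.86 to -1.94 in the collagen-poor ones. Most collagen-rich tumours were therefore rich only beside other tumours, since 3 of 4 had a score below the reference.

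**Figure D1:**
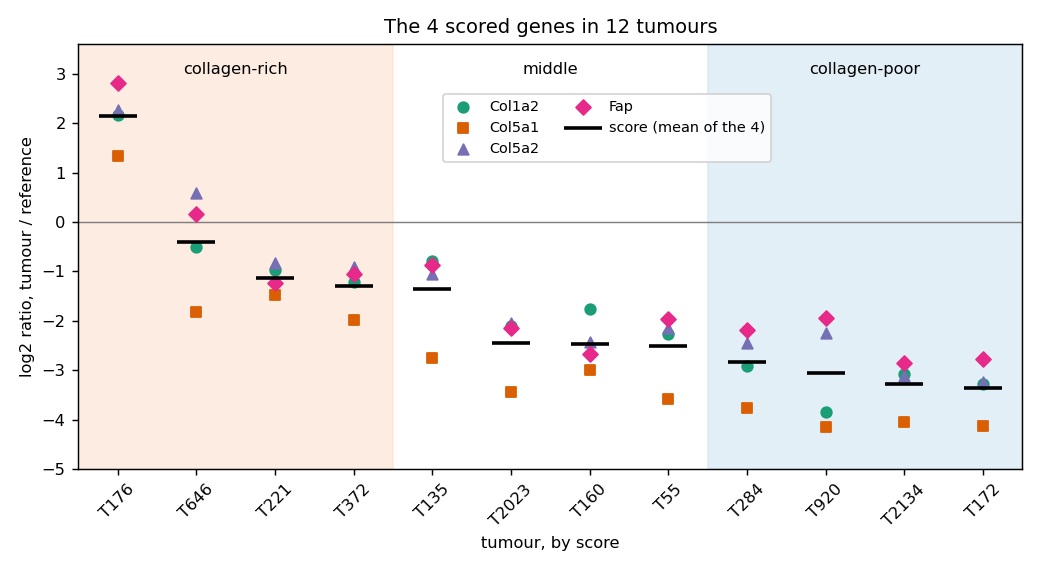
Log2 ratio of tumour over reference (vertical axis) for Col1a2, Col5a1, Col5a2 and Fap in 12 tumours ordered by score, with the score as a black bar. T176 stands alone at 2.14, and T372 (-1.29) and T135 (-1.36) are almost level on either side of the group boundary.

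Across the 16875 other genes, limma called 14 genes higher in the collagen-rich tumours (0.083% of genes tested) and 0 lower (0.0%), at a Benjamini-Hochberg adjusted p under 0.05. At an unadjusted p under 0.05, limma gave 1398 genes higher (8.28%) and 1140 lower (6.76%). The 14 calls also depended on the processing. A robust prior kept 8 of them, and quantile normalization, which itself exchanged a tumour in each group, kept 0, with adjusted p up to 0.341 and the same sign for all 14. Both gave 0 lower calls. A second count asked for groups that did not overlap and differed in mean by at least 1. Genes that met both conditions are termed separated. They numbered 387 on the higher side (2.29%) and 160 on the lower side (0.948%). Without T176, 155 genes were called higher (0.919%) and 10 lower (0.0593%), and 649 (3.85%) and 171 (1.01%) were separated. All 14 genes called with T176 were among the 155. Because collagen genes of the same arrays chose the groups, these p-values describe how a gene goes with the scored genes and are no independent evidence. The call count depended on single tumours. It was 4 without T646, 7 without T372, 32 without T2134 and 0 without T221, T284, T920 or T172, while the sign of all 14 differences stayed the same in each case. Separated genes numbered 721 higher and 386 lower without T2134, and 283 and 256 lower without T646 and T372.

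Of the 14 genes called higher, all lost after quantile normalization, 4 stood on the lists used here, namely Thbs2, Mfap2, Itga11 and Mmp14. Clmp, which encodes a transmembrane adhesion protein of the immunoglobulin family, had the largest difference among them. It measured 0.36, -1.54, -1.54 and -2.08 in T176, T646, T221 and T372 and -4.84, -4.84, -4.64 and -5.04 in T284, T920, T2134 and T172. The groups were far apart and the middle tumours, at -3.67 to -2.37, filled the gap. The difference was 3.64 ± 0.47 (SE, n = 4 against 4; limma adjusted p = 0.0482), and 3.12 without T176 (adjusted p = 0.00363).

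Thbs2 encodes thrombospondin 2, a secreted protein that modulates collagen fibre assembly. It measured 0.33, 0.56, 1.14 and -0.68 in the collagen-rich tumours and -2.58, -3.26, -2.40 and -3.03 in the collagen-poor ones. T221 was highest here, not T176, and the difference of 3.15 ± 0.38 (SE; adjusted p = 0.0482) was 3.16 without T176 (adjusted p = 0.0255). Itga11 encodes the α11 integrin subunit, a receptor for fibrillar collagen on fibroblasts. It stood at 1.93, 0.23, 0.70 and 0.39 in T176, T646, T221 and T372 and at -1.70, -2.03, -2.70 and -2.58 in T284, T920, T2134 and T172. Every collagen-rich tumour was above the reference and every collagen-poor tumour below it, a difference of 3.06 ± 0.40 (SE; adjusted p = 0.0482). Mmp14, a membrane-anchored metalloprotease that cleaves collagen and activates proMMP2, measured 1.02, 0.84, 0.47 and -0.04 against -2.30, -1.74, -1.29 and -1.52. It differed by 2.29 ± 0.30 (SE; adjusted p = 0.0482), with no overlap. Mfap2, a component of elastic microfibrils, was below the reference in all 8 tumours, at -2.63 to -2.24 in the collagen-rich and -4.12 to -3.58 in the collagen-poor group (difference 1.37, adjusted p = 0.0482).

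Fstl1 and Slit3 encode secreted proteins. Fstl1, a secreted glycoprotein related to follistatin, measured -1.96 in T176 and -0.74, -0.94 and -0.94 in T646, T221 and T372, against -4.10 to -3.53 in the collagen-poor tumours. T176 was thus the lowest collagen-rich tumour for this gene, and the difference of 2.62 (adjusted p = 0.0425) was 2.89 without it (adjusted p = 0.00363). Slit3, a ligand of Robo receptors, ranged from 0.32 to 1.42 in the collagen-rich and from -2.08 to -1.18 in the collagen-poor group (difference 2.53, adjusted p = 0.0482).

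Cd302, a C-type lectin receptor, had the lowest adjusted p, 0.0282. It measured 0.23, 0.05, -0.10 and -0.21 in T176, T646, T221 and T372 and -2.15, -2.08, -2.78 and -2.53 in T284, T920, T2134 and T172, a difference of 2.38 ± 0.21 (SE). All 4 collagen-rich tumours were close to the reference, although the scored genes spread widely over them. Slco3a1 (organic anion transporter, difference 2.82, adjusted p = 0.0361), Pls3 (actin bundling, 2.21, 0.0428), Slc43a3 (nucleobase transporter, 1.62, 0.0423), Ramp2 (adrenomedullin receptor partner, 1.45, 0.047) and Cfp (properdin of the complement system, 1.98, 0.0482) had no overlap either. Xlr4b (2.69, adjusted p = 0.0482) belongs to a family of X-linked copies that 1 probe may not tell apart. Its middle tumours T135 and T2023 reached 3.24 and 3.63, above every collagen-rich tumour. For the other 13 genes the mean of the middle tumours lay between both groups. Mfap2 in T135 (-1.85) nevertheless lay above every collagen-rich tumour (at most -2.24). Of the 14 genes 13 rested on 1 probe, and the paired arrays of T172 or T284 differed by at most 1.24 for any of them (median 0.26).

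**Figure D2:**
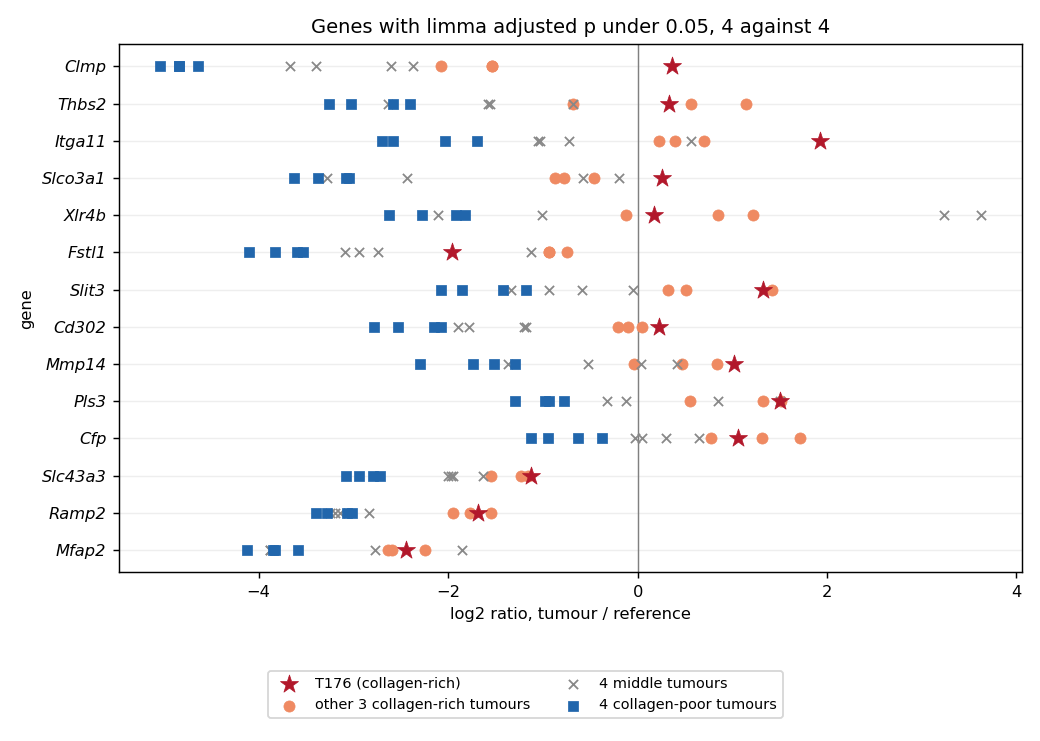
Log2 ratio of tumour over reference (horizontal axis) for the 14 genes called between the 4 collagen-rich and 4 collagen-poor tumours, 1 mark per tumour. The groups do not overlap for any gene, and T176 is the highest collagen-rich tumour for 6 of the 14.

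Among fibrillar collagen genes outside the score, 3 of 7 tested were separated on the higher side (2.29% of all genes were), and 0 on the lower side. With all 8 tumours limma called none (4 higher and 0 lower at an unadjusted p under 0.05, against 8.28% and 6.76% of all genes). The median difference of the 7 was 1.83, against 0.01 over all genes. Col1a1, the partner chain of Col1a2, measured 1.89, -1.20, -2.33 and -1.73 in T176, T646, T221 and T372 and -3.28, -3.42, -2.89 and -3.52 in T284, T920, T2134 and T172. The groups did not overlap, but T176 alone lay above the reference (difference 2.43, adjusted p = 0.232; 1.52 and 0.0665 without T176).

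Col3a1, the chain of type III collagen that forms fibres together with type I, went another way in T176. It measured -3.30 in T176 and -0.86, -0.62 and -1.26 in T646, T221 and T372, against -3.06, -4.0, -3.32 and -3.64 in the collagen-poor tumours. T176 therefore lay inside the collagen-poor range for Col3a1 while it was the highest of 12 tumours for Col1a1 and Col1a2. The difference was 1.99 with T176 (adjusted p = 0.197) and 2.59 without it (adjusted p = 0.0153). Col2a1, the chain of cartilage collagen, was below the reference in all 8 tumours, with -3.91 in T176, -1.98 to -1.38 in the other 3 and -4.12 to -3.92 in the collagen-poor tumours. T176 lay just above the collagen-poor range here, so the groups did not overlap (1.83, adjusted p = 0.196; 2.40 and 0.00587 without T176). Col5a3, the further chain of type V collagen, stood at -0.99 to -0.03 against -2.58 to -2.19 and was called only without T176 (difference 1.75, adjusted p = 0.0539 with it; 1.87 and 0.0255 without).

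The RefSeq promoter table (GRCm38.p6) held Col1a2 and Col3a1, which encode chains of partner fibrillar collagens and differed in T176, and the called genes Itga11 and Thbs2. The 250 bases before the start are shown for Col1a2 (chr6:4505368-4505617, plus strand), Col3a1 (chr1:45311288-45311537, plus strand), Itga11 (chr9:62677605-62677854, plus strand) and Thbs2 (chr17:14694263-14694512, minus strand). Capitals mark matches to 4 short motifs, each searched on both strands, and no marked match overlaps another. The TATA box was searched as TATAAA. The GC box was searched as GGGCGG. The AP-1 site was searched as TGANTCA. The CCAAT box was searched by those letters.
Col1a2: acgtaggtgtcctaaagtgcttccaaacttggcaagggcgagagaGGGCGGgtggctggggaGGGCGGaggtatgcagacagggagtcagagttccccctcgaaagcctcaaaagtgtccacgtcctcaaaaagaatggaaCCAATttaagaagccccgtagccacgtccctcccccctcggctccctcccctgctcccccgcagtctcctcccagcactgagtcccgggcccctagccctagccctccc
Col3a1: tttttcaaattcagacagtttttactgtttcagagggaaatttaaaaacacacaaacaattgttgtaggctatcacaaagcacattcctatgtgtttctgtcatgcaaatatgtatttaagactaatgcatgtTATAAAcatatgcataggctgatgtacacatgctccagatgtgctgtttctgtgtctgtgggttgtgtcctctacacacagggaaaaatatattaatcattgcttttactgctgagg
Itga11: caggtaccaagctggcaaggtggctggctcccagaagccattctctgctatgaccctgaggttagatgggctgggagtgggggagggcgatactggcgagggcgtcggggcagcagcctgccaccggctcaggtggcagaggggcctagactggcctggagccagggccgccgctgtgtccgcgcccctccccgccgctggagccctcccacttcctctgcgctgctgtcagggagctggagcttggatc
Thbs2: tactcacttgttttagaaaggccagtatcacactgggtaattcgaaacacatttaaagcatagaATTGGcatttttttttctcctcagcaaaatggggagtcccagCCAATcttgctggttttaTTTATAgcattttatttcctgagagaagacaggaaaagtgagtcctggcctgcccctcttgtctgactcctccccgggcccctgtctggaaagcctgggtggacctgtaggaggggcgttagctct
Col1a2 held 1 CCAAT box match, 2 GC box matches and no TATA box match, whereas Col3a1 held 1 TATA box match and neither of the others. Thbs2 held 2 CCAAT box matches and 1 TATA box match, and Itga11 held a match to none of the 4 motifs. The TATA box match began 117 bases before the start in Col3a1 and 126 in Thbs2, there on the opposite strand. Over 27025 promoters of the same length, the TATA box was found in 13%, the CCAAT box in 34.5%, the GC box in 32.9% and the AP-1 site in 6.87%. Of the 155 genes called without T176, 109 had a promoter in the table, and 15.6% of these held a TATA box, 24.8% a CCAAT box, 35.8% a GC box and 6.42% an AP-1 site. A match is a description of letters and says nothing of binding.

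Of the minor chains, Col24a1 and Col11a2 were high in T176, while Col5a3 stood at -0.99, its lowest collagen-rich value. Col24a1 measured 3.75 and Col11a2 2.61 there, against -1.64 to -1.07 and -1.20 to -0.44 in the other 3 collagen-rich tumours. Neither was called with or without it. Col11a1 was the 1 of 7 with a mean difference below 0 (-0.36), with 1.70 in T176 but 1.68 in T284 and 1.41 in T172, and its sign changed without T221, T284 or T172. Of 28 other collagens, such as network and cartilage types, 2 were separated on each side (2.29% of all genes higher and 0.948% lower). By limma 0 were called (3 higher and 3 lower at an unadjusted p under 0.05, against 8.28% and 6.76% of all genes). The median difference was 0.13. The separated ones included Col6a1 of microfibrils (1.43) on the higher side. On the lower side they included Col9a1 of cartilage (-2.63, with 2.97 in T284 and 2.56 in T172). Col9a3 (-2.10) and Col9a1 were not called (adjusted p = 0.227 and 0.148). Without T176 Col14a1, a collagen bound to fibre surfaces, was called higher (0.97, adjusted p = 0.0479), and T176 held its lowest value, -2.72.

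Of 24 genes for folding, trimming and cross-linking collagen, 7 were separated on the higher side (2.29% of all genes) and 0 on the lower. By limma 0 were called (11 higher and 1 lower at an unadjusted p under 0.05, against 8.28% and 6.76% of all genes), and the median difference was 0.93, or 0.51 without T176. Lox, a lysyl oxidase that cross-links collagen and elastin, measured 0.22, -2.38, -1.60 and -1.71 in T176, T646, T221 and T372 and -4.13, -4.27, -4.25 and -4.95 in the collagen-poor tumours. The gap between groups was wide, and Lox was called without T176 (2.51, adjusted p = 0.0172) but not with it (3.04, adjusted p = 0.0738). Pcolce, an enhancer of procollagen C-proteinase, measured 1.83 in T176, -1.79 to -1.05 in the other 3 and -3.44 to -3.04 in the collagen-poor tumours (1.79 without T176, adjusted p = 0.0222). Its relative Pcolce2 differed by 2.76 (adjusted p = 0.0935), Bmp1, the C-proteinase itself, by 2.34 (0.215), Loxl2, another lysyl oxidase family member, by 1.77 (0.0801) and Sparc, a collagen-binding glycoprotein, by 2.64 (0.193), all with no overlap and no call in either comparison.

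Of 37 matrix glycoproteins, 2 were called higher with T176 (Thbs2 and Mfap2; 0.083% of all genes were), 10 were separated (2.29% of all genes), and the median difference was 1.24. Without T176, 9 were called higher (0.919% of all genes) and 17 were separated (3.85%). Of the genes called only then, Fbln1, Fbln2 and Mfap5 had low values in T176. Fbln1 (fibulin 1, a basement membrane and elastic fibre protein) measured -1.94 in T176 and 2.69, 1.77 and 0.61 in the other 3, against -1.96 to -0.38 in the collagen-poor tumours. Fbln2 measured -3.56 in T176, below all 4 collagen-poor tumours (-1.66 to -0.18), and 1.09 to 1.84 in the other 3. Mfap5, a microfibril protein, stood at -3.12 in T176, -0.12 to 0.50 in the other 3 and -2.76 to -2.06 in the collagen-poor group. Without T176 their differences were 3.04, 2.52 and 2.52 (adjusted p = 0.0478, 0.0358 and 0.0133). Postn, periostin of activated stroma, was lowest in T176 (-4.24) among the 8 tumours and was not called either way (adjusted p = 0.48 and 0.155). Tnc, tenascin C, went the opposite way, with 3.28 in T176, -0.39 to 0.03 in the other 3 and -2.26 to -0.71 in the collagen-poor tumours (adjusted p = 0.264). Ccn2, a matricellular target of TGF-beta, differed by 2.20 with no overlap (adjusted p = 0.0906). Comp, a cartilage glycoprotein, cut across the groups, with 4.13 in T646, 3.63 in T284 and 4.33 in T172 but -3.12 to 0.52 in the other tumours compared. Its mean difference of -0.88 changed sign without T372, T284 or T172.

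Among proteoglycans, 5 of 22 were separated on the higher side (2.29% of all genes), and the median difference was 0.76. By limma 0 were called (7 higher and 0 lower at an unadjusted p under 0.05, against 8.28% and 6.76% of all genes). Omd and Fmod, small leucine-rich proteoglycans of bone and tendon, measured 4.60 and 4.12 in T176. In the other 3 collagen-rich tumours they stood at -2.94 to -1.95 and -1.74 to -1.01, against -4.25 to -3.08 and -3.16 to -2.60 in the collagen-poor group. The difference of 3.02 in each was 1.26 for Omd and 1.67 for Fmod without T176. Fmod was called only then (adjusted p = 0.282 with T176, 0.0328 without) and Omd in neither comparison (0.379 and 0.17). Dcn, decorin, differed by 2.74 with no overlap (adjusted p = 0.0925). Srpx2 was called without T176 (1.89, adjusted p = 0.0172), with 3.21 in T176 itself.

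All 27 measured matrix proteases and protease inhibitors had a mean difference above 0, with a median of 1.12, while 8568 of all 16875 genes did. Of these 27, 1 was called (Mmp14, against 0.083% of all genes) and 6 were separated on the higher side (2.29% of all genes). Without T176, 6 were called higher (0.919% of all genes). Mmp13, a secreted collagenase, measured 4.51, 2.02, 0.56 and 1.14 in T176, T646, T221 and T372 and -3.70, -3.24, -1.90 and -3.74 in T284, T920, T2134 and T172. The difference, 5.20, was larger than for any of the 14 called genes but came with a larger spread (SE 0.82, adjusted p = 0.0688), and without T176 it was 4.38 (adjusted p = 0.0183). Ctsk, a lysosomal protease that degrades collagen, measured 3.87 in T176, -1.77 to -0.96 in the other 3 and -3.84 to -3.00 in the collagen-poor tumours (2.18 without T176, adjusted p = 0.0255). Timp1, an inhibitor of metalloproteases, ranged from 1.32 to 2.62 against -0.47 to 0.13 (1.90 without T176, adjusted p = 0.0483).

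Over the 6 matrix lists together, 3 of 145 genes were called higher and 0 lower with T176, against 0.083% and 0.0% of all genes. Of the 145, 33 were separated on the higher side and 2 on the lower (2.29% and 0.948% of all genes). A difference above 0 was found for 125. Without T176, 23 were called higher and 0 lower (0.919% and 0.0593% of all genes). The median difference over the 145 genes was 0.85, and 0.77 without T176.

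Fibroblast genes are given as a description. Fap, a member of that list, and collagen genes of the same arrays chose the groups, so these values are no check of the label. Whether the collagen came from stroma or from tumour cells was not tested. Of 27 fibroblast genes tested, 26 had a difference above 0 and the median difference was 1.33. Of these 27, 10 were separated on the higher side (2.29% of all genes) and 0 on the lower. With T176 1 was called (Itga11, against 0.083% of all genes), and without it 7 (0.919%). Fbln1 and Mfap5, both called without T176, are also counted among the matrix glycoproteins, so these counts are not separate results. Pdgfra, a receptor that marks fibroblasts, measured 0.88, -0.57, -1.36 and -1.19 in T176, T646, T221 and T372 and -3.56, -2.78, -4.34 and -3.05 in the collagen-poor tumours (2.87, adjusted p = 0.0905; 2.39 and 0.0377 without T176). Pdgfrb, the related receptor of fibroblasts and pericytes, did not overlap either (2.29, adjusted p = 0.09). Thy1, a fibroblast surface protein, did overlap, with -2.19 in T176 below all collagen-poor tumours (-1.70 to -0.86) and -0.23 to 1.48 in the other 3. Prrx1, a mesenchymal homeobox factor, and S100a4, a calcium-binding protein, were called without T176 (1.59 and 3.10, adjusted p = 0.0313 and 0.035). Acta2, the smooth muscle actin of myofibroblasts, overlapped fully. It ranged from -3.23 to -2.18 in the collagen-rich and -3.39 to -1.86 in the collagen-poor tumours (0.08, adjusted p = 0.941), and its sign changed without T176, T646 or T2134. The mean level of the fibroblast genes outside the score, each centred on its average over the 12 tumours, stood in all 4 collagen-rich tumours 0.50 to 1.0 above 0, against -0.75 to -0.45 in the collagen-poor tumours.

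Of 14 genes for mesenchymal transcription factors and their companions, 9 were separated on the higher side (2.29% of all genes) and 0 on the lower. Their median difference was 1.76. Twist1, Twist2, Vim, Prrx1 and S100a4 also stand on the fibroblast list and Fn1 among the matrix glycoproteins, so these lists are not separate results. With T176 limma called none (12 higher and 0 lower at an unadjusted p under 0.05, against 8.28% and 6.76% of all genes). Without it, 3 were called (0.919% of all genes). Cdh11, the mesenchymal cadherin, measured 1.50 in T176, -2.17 to -1.19 in the other 3 and -4.35 to -3.50 in the collagen-poor tumours (2.21 without T176, adjusted p = 0.0265). Twist1, Zeb1, Zeb2 and Snai1, repressors of epithelial genes, differed by 2.39, 1.25, 1.97 and 1.45 with no overlap, and Vim, the mesenchymal filament protein, by 1.43. None of these 5 was called in either comparison (adjusted p = 0.111 to 0.248 with T176, 0.0884 to 0.304 without).

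Signalling lists had smaller medians. Of 30 TGF-beta pathway genes, 3 were separated on the higher side (2.29% of all genes) and 18 had a difference above 0. By limma 0 were called (5 higher and 1 lower at an unadjusted p under 0.05, against 8.28% and 6.76% of all genes). The median difference was 0.19, but -0.01 without T176, when 13 of 30 lay above 0 and 2 were called higher (0.919% of all genes). Inhba, the activin A subunit, measured -0.96 in T176 but 2.24, 1.35 and 1.57 in T646, T221 and T372, against -2.58 to -0.88 in the collagen-poor tumours (3.61 without T176, adjusted p = 0.0174). Bmp2 ranged from 0.36 to 1.84 against -1.13 to -0.51 (1.84 without T176, adjusted p = 0.0427). Tgfb1 itself was high in T176 (2.96) and T646 (1.95) but -0.50 and 0.09 in T221 and T372, within the collagen-poor range of -0.21 to 1.29 or below it. Its difference of 0.55 was not called (adjusted p = 0.745) and changed sign without T176. Among 26 PDGF, FGF and IGF genes 5 were separated on the higher side (2.29% of all genes). Without T176, 2 were called higher (0.919% of all genes), Pdgfra and the IGF-binding protein Igfbp6 (1.72, adjusted p = 0.0313). Among 25 matrix receptors 1 was called, Itga11 (0.083% of all genes). Without T176 the collagen-binding kinase Ddr2 was called as well (1.75, adjusted p = 0.0246), which made 2 (0.919% of all genes). On the lower side Itga6, a laminin receptor subunit of epithelium, did not overlap (-1.48, adjusted p = 0.316). Of 28 Wnt genes 0 were called by limma or separated, with a median of 0.29. At an unadjusted limma p under 0.05, 7 were higher and 0 lower, against 8.28% and 6.76% of all genes. The largest differences were those of the secreted antagonist Wif1 (2.91, adjusted p = 0.252) and the ligand Wnt10a (2.07, 0.314).

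**Figure D3:**
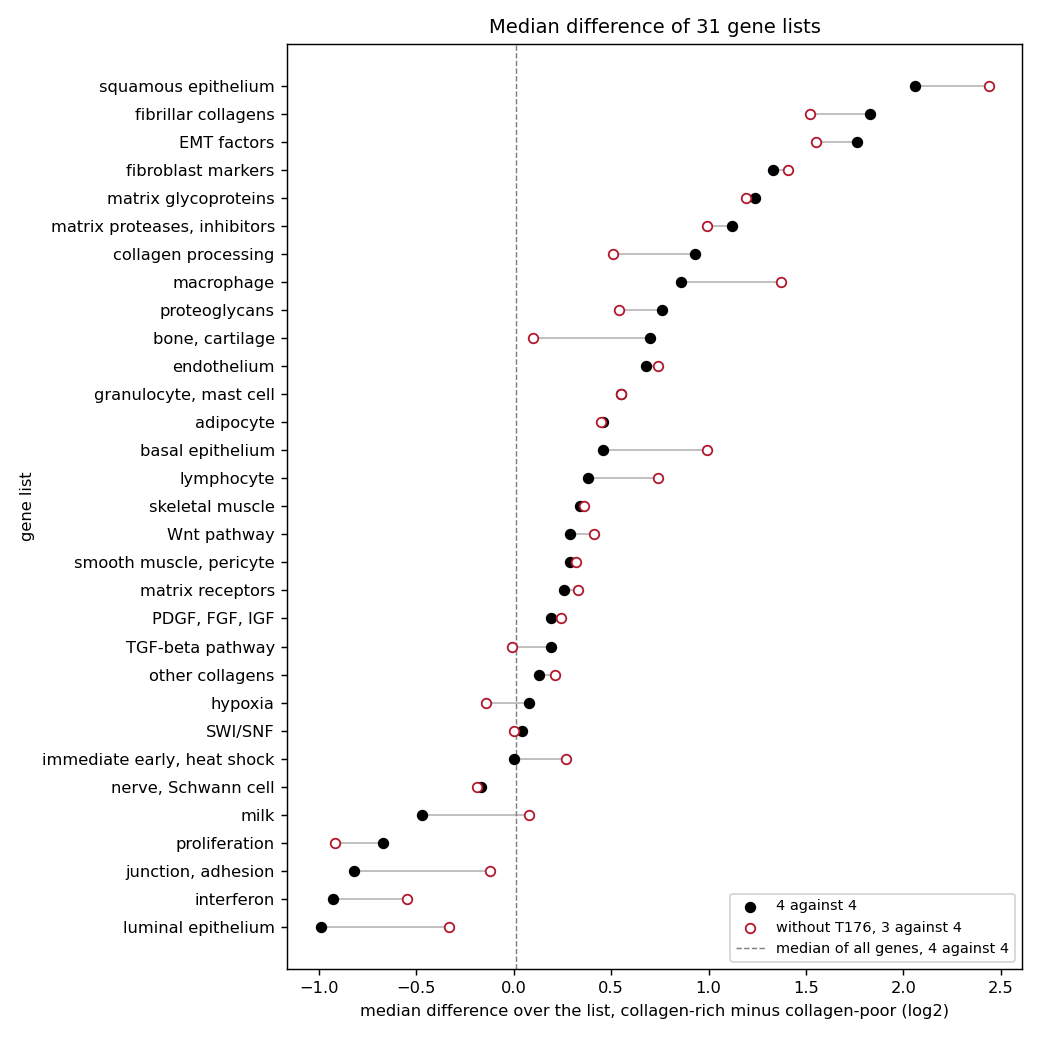
Median over each of 31 gene lists of the difference in log2 ratio, collagen-rich minus collagen-poor (horizontal axis), with all 8 tumours (filled) and without T176 (open). Fibrillar collagens (1.83), EMT factors (1.76), fibroblast markers (1.33) and matrix glycoproteins (1.24) stay high without T176, while luminal epithelium moves from -0.99 to -0.33. Some lists share genes.

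T176 did not share every difference of the other 3 collagen-rich tumours. Of the 155 genes called higher without T176, T176 lay above all 4 collagen-poor tumours for 92 and within or below their range for 63, and below all 4 for 36. Cpxm1, a carboxypeptidase-like secreted protein, had the largest difference of the 155. It measured -1.67 in T176 and 3.77, 3.25 and 2.49 in T646, T221 and T372, against -2.01 to -1.21 in the collagen-poor tumours (4.62, adjusted p = 0.00363). Other genes among the 12 largest of the 155 with T176 low were Retnla (-3.47 in T176, 1.83 to 2.35 in the other 3), a secreted product of alternatively activated macrophages, F13a1 (-4.70 against -0.08 to 0.68), a transglutaminase of macrophages, Rarres2 (-1.37 against 1.0 to 1.34), which encodes the chemoattractant chemerin, and Reg3g (-4.05 against -2.18 to -0.66), a lectin of epithelia. Their adjusted p-values without T176 were 0.00363, 0.0169, 0.00455 and 0.0281. T176 lay below the collagen-poor range for Retnla (-1.41 to -0.72) and F13a1 (-3.36 to -2.05) and inside it for Reg3g (-4.82 to -3.75). For Rarres2 it lay above that range (-2.51 to -1.53), so the groups did not overlap with T176 included. Serpinf1, Spon1 and Galnt6 were high in T176 as well, at 2.54, 4.25 and 0.54, with differences of 3.10, 3.30 and 3.74 without it (adjusted p = 0.0172, 0.0377 and 0.0479). In contrast, Ibsp, the bone sialoprotein, measured 5.73 in T176 and -4.58 to -4.08 in the other 3, close to the -5.07 to -4.33 of the collagen-poor tumours. The 18 bone and cartilage genes had a median difference of 0.70, and 0.10 without T176. These genes of T176 were picked after their values were seen.

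**Figure D4:**
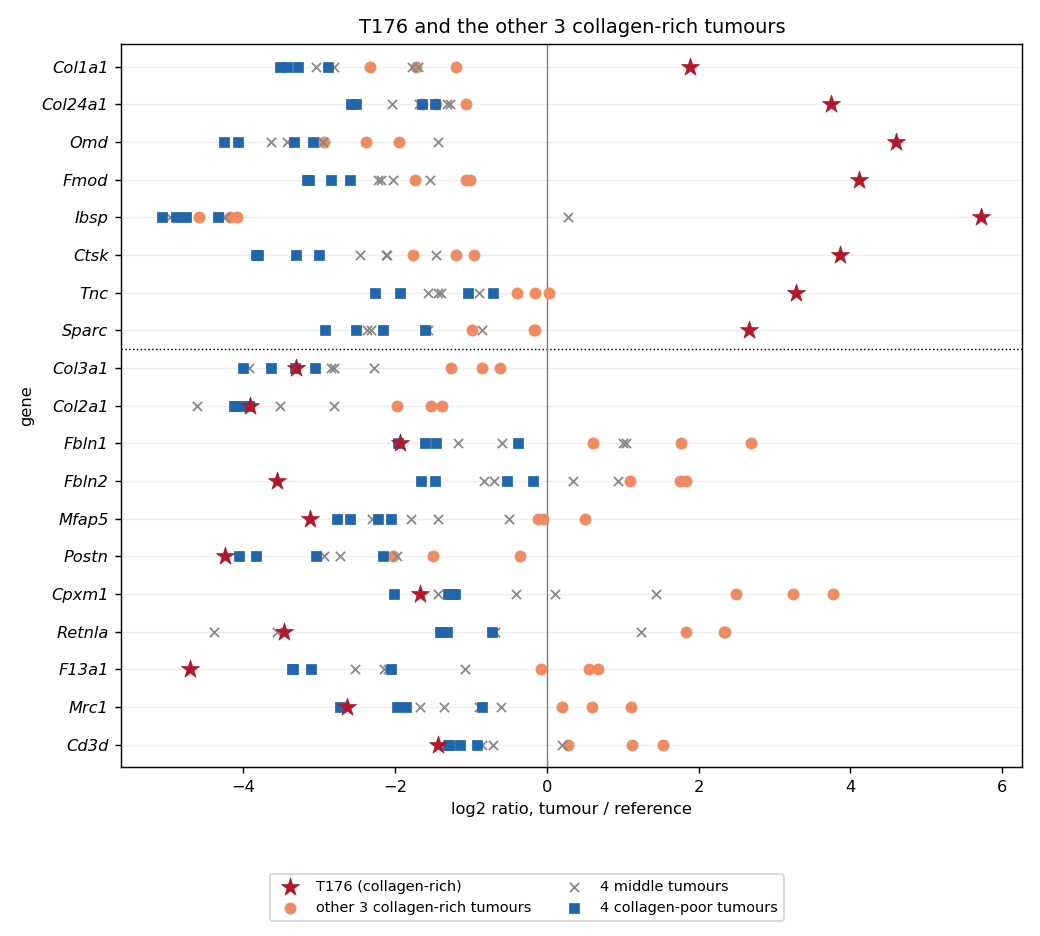
Log2 ratio of tumour over reference (horizontal axis) for genes chosen after their values were seen, 1 mark per tumour; above the dotted line are genes with T176 highest, below it genes with T176 low. T176 measures 5.73 for Ibsp and -3.30 for Col3a1, whereas the other 3 collagen-rich tumours lie at -4.58 to -4.08 and -1.26 to -0.62.

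Without T176, 10 genes were called lower. Rhpn2 (-2.12), Acss1 (-1.95), Timd2 (-1.69), Pkp2 (-1.69) and Suclg2 (-1.50) had the largest differences, followed by Mpzl1 (-1.44), D630013G24Rik (-1.43), Metap1d (-1.40), Srebf1 (-1.39) and Fkbp4 (-1.21), with adjusted p = 0.0255 to 0.0483. Pkp2 is a desmosomal plakophilin, Acss1 and Suclg2 are mitochondrial enzymes, and Srebf1 is the regulator of fatty acid synthesis. Srebf1 measured 1.13, 0.48 and 0.41 in T646, T221 and T372, 0.17 in T176, and 2.28, 1.97, 2.25 and 1.77 in T284, T920, T2134 and T172. T176 lay below all 4 collagen-poor tumours for 9 of the 10 genes, the exception being Metap1d (0.78 in T176, inside the collagen-poor range of 0.08 to 0.79).

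With all 8 tumours no gene was called lower, and the largest differences among separated genes belonged to Elf5, Deptor and 4931406C07Rik. Elf5, the transcription factor of luminal alveolar cells, measured -2.22, -0.16, 3.72 and 3.45 in T176, T646, T221 and T372 and 4.60, 4.54, 4.46 and 3.75 in T284, T920, T2134 and T172. T221 stood next to T172, and T176 and T646 lay far below, with a mean difference of -3.14 (adjusted p = 0.289). Deptor, an inhibitor of mTOR, ranged from -1.99 to -0.73 against -0.05 to 3.30 (-2.84, adjusted p = 0.166), and Kit, a receptor of luminal progenitors, from -1.34 to 2.63 against 3.27 to 4.14 (-2.34, 0.229). The others of the 12 largest were 4931406C07Rik (-2.79), Clic6 (-2.74), Col9a1 (-2.63), 0610040J01Rik (-2.49), Dmrta2 (-2.46), Elapor1 (-2.43), Arhgap8 (-2.36), Lrrc26 (-2.31) and Spag5 (-2.29), with adjusted p = 0.13 to 0.36.

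Markers of other cell types are given by list, and their part in the matrix differences was not tested. Of 18 luminal epithelial genes, 2 were separated on the lower side (0.948% of all genes). By limma 0 were called (0 higher and 4 lower at an unadjusted p under 0.05, against 8.28% and 6.76% of all genes). A mean below that of the collagen-poor tumours was found for 14, with a median difference of -0.99 that was -0.33 without T176. The mean level of the list was -2.92 in T176, -0.11 to 0.40 in the other 3 collagen-rich tumours and 0.18 to 0.74 in the collagen-poor tumours. Krt8 and Krt18, the simple epithelial keratins, measured -3.53 and -4.25 in T176, and Epcam, an epithelial adhesion protein, -4.09. In the other 3 collagen-rich tumours Epcam ranged from 0.70 to 3.18 and Krt18 from 1.14 to 2.96, against 2.19 to 3.10 and 2.58 to 2.92 in the collagen-poor tumours. Krt8, Krt18 and Epcam were not called (adjusted p = 0.316, 0.483 and 0.498). The junction list had a median of -0.82, and -0.12 without T176, with Ocln, a tight junction protein, free of overlap (-1.36, adjusted p = 0.189), and Pkp1, a desmosomal protein, going the other way (2.08, 0.453). The mean junction level was likewise -2.56 in T176 and -0.13 to 0.54 in the other 3, against -0.02 to 0.37 in the collagen-poor group.

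Of 17 macrophage genes, limma called 0 with T176, and 1 was separated on the higher side (2.29% of all genes). At an unadjusted limma p under 0.05, 3 were higher and 0 lower, against 8.28% and 6.76% of all genes. Without T176, 5 were called higher (0.919% of all genes) and 9 were separated (3.85%), and all 17 had a difference above 0 (median 1.37). Mrc1, the macrophage mannose receptor, measured -2.63 in T176, 0.60, 1.11 and 0.20 in T646, T221 and T372 and -2.72 to -0.85 in the collagen-poor tumours (2.49 without T176, adjusted p = 0.0462). Cd163, Lyz2 and Aif1, further macrophage genes, were called as well (2.32, 1.76 and 1.62, adjusted p = 0.0313, 0.029 and 0.0437). The mean macrophage level was -0.84 in T176, 0.51 to 1.24 in the other 3 and -0.69 to -0.03 in the collagen-poor group. Of 16 lymphocyte genes 2 were called higher without T176 (0.919% of all genes), the T cell genes Cd3d (2.14, adjusted p = 0.0265) and Cd8b1 (2.01, 0.0323). The mean lymphocyte level was -0.55 in T176, 0.21 to 1.09 in the other 3 and -0.31 to 0.06 in the collagen-poor group. Ptprc, the pan-leukocyte CD45, was not called (1.24, 0.148), and neither was Cd79b of B cells (2.32, 0.205).

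Of 18 endothelial genes, 3 were separated on the higher side (2.29% of all genes), Cd34 (1.81), Emcn (1.27) and Vwf (1.03). Cd34 also stands on the fibroblast list. By limma 0 were called (7 higher and 0 lower at an unadjusted p under 0.05, against 8.28% and 6.76% of all genes), with a median of 0.68. The mean endothelial level was 0.23 to 0.73 in the collagen-rich and -0.53 to 0.03 in the collagen-poor tumours. Pecam1, an endothelial adhesion protein, did not overlap but differed by less than 1, at -0.60 to 0.30 against -0.78 to -0.60 (0.45, adjusted p = 0.368), and Cldn5 of endothelial tight junctions stood at -2.49 to -0.82 against -3.53 to -1.63 (1.43, adjusted p = 0.253). Smooth muscle and pericyte genes had 2 of 18 separated on the higher side (2.29% of all genes), Pdgfrb among them. Cspg4 of pericytes measured 1.52 in T176 but -1.65 to 0.12 in the other collagen-rich tumours (1.47, adjusted p = 0.323). Adipocyte and skeletal muscle lists had 0 genes called by limma or separated, with medians of 0.46 and 0.34 that were 0.08 and -0.26 after quantile normalization. At an unadjusted limma p under 0.05, 0 and 5 were higher and 0 and 0 lower, against 8.28% and 6.76% of all genes. Adipoq, the adipocyte hormone, measured -1.38 in T221 and -4.88 to -4.22 in the other collagen-rich tumours, against -4.82 to -3.04 (0.45, adjusted p = 0.809; the sign changed without T221). Car3 (1.56, adjusted p = 0.475), Cd36 (-0.87, 0.681), Actn3 (0.76, 0.197, no overlap) and Myoz1 (0.71, 0.263) were not called. Of 6 Schwann cell genes, 3 had a difference above 0 (median -0.17). By limma 0 were called (1 higher and 1 lower at an unadjusted p under 0.05, against 8.28% and 6.76% of all genes). S100b (-1.88, adjusted p = 0.376) and Sox10 (-1.62, 0.309) were the largest in size.

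Squamous genes had the largest median of the 31 lists (2.06) and 0 genes called by limma or separated. At an unadjusted limma p under 0.05, 4 were higher and 0 lower, against 8.28% and 6.76% of all genes. The 2 with the largest differences split the collagen-rich group. Crct1, a cornified envelope gene, measured -3.39 and -4.26 in T176 and T646 but 2.31 and 2.65 in T221 and T372, against -5.44 to -2.37 in the collagen-poor tumours (3.82, adjusted p = 0.323). Calm4, a keratinocyte calcium-binding protein, gave the same split, with 2.88 and 1.70 in T221 and T372 and -1.35 and -4.20 in T176 and T646 (3.54, adjusted p = 0.343). The basal keratins Krt5 (1.98, adjusted p = 0.403) and Krt14 (1.89, 0.461) and the basal factor Trp63 (1.12, 0.779, sign changed without T221) were not called. The calprotectin genes S100a8 and S100a9 reached 3.31 and 1.94 in T221 and were at 2.06 and 0.38 in the collagen-poor T2134 (adjusted p = 0.477 and 0.379).

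Lists for tumour cell programmes gave 0 limma calls. At an unadjusted p under 0.05, 2 of 24 proliferation and 6 of 16 interferon genes were lower and 0 higher, against 6.76% and 8.28% of all genes, so the proliferation count was near the share over all genes. Of 24 proliferation genes, 1 had a difference above 0 and the median was -0.67 (-0.92 without T176). The mean level was -1.66 in T646 but 0.36 and 0.33 in T176 and T372, inside the collagen-poor range of 0.02 to 0.56. Rrm2 of nucleotide synthesis (-1.17, adjusted p = 0.351) and Nusap1 of the spindle (-1.12, 0.387) were lowest in T646, at -2.38 and -2.71. Interferon-stimulated genes had a median of -0.93 (-0.55 without T176), with Ifit1 (-2.15, adjusted p = 0.274) and Usp18 (-1.78, 0.305). Their mean level overlapped between the groups, at -1.47 to 0.40 in the collagen-rich and -0.62 to 1.44 in the collagen-poor tumours. T172 held the -0.62, below T221 (-0.02) and T372 (0.40). Of 14 milk genes 2 had a difference above 0 (median -0.47), and 7 without T176 (median 0.08). After quantile normalization, which exchanged a tumour in each group, the milk median was -1.91. The mean milk level was -2.24 and -1.09 in T176 and T646 but 1.12 and 1.47 in T221 and T372. It ranged from -1.07 to 1.88 in the collagen-poor tumours. Of 14 hypoxia genes 8 had a difference above 0 (median 0.08, and -0.14 without T176), and of 14 immediate early and heat shock genes 7 did. The milk genes Lalba (-1.95, adjusted p = 0.118, no overlap) and Btn1a1 (-1.08, 0.454), the hypoxia genes Car9 (-1.54, 0.11, no overlap) and Pdk1 (-1.07, 0.369) and the immediate early genes Nr4a1 (-1.81, 0.282) and Junb (1.37, 0.237) were not called.

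Brg1 itself did not separate the groups. Smarca4 measured 0.08, -0.48, -1.05 and -0.30 in T176, T646, T221 and T372 and -1.08, -0.44, -0.49 and -0.92 in T284, T920, T2134 and T172. The groups overlapped and the difference was 0.29 ± 0.27 (SE; adjusted p = 0.629). Among 21 SWI/SNF genes 0 were called by limma or separated (median 0.04). At an unadjusted limma p under 0.05, 2 were higher and 1 lower, against 8.28% and 6.76% of all genes. Smarcd3, an accessory subunit, stood at 0.72 in T176, with all 7 remaining tumours at -3.22 to -2.32 (1.20, adjusted p = 0.449), and Arid2, a subunit of the PBAF form, at -0.69 to -0.12 against -0.25 to 0.60 (-0.64, 0.263).

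**Figure D5:**
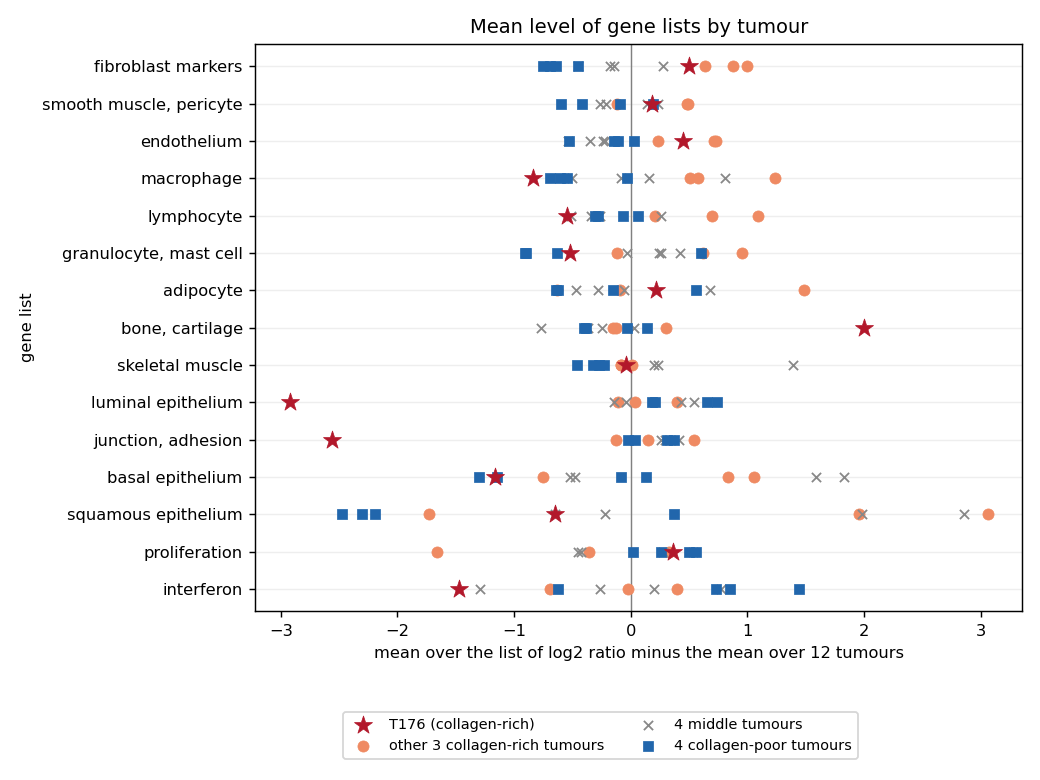
Mean level of 15 gene lists in each tumour (horizontal axis: log2 ratio centred on each gene's 12-tumour average, as a list mean without the scored genes). T176 is at -2.92 for luminal epithelium and -0.84 for macrophages, whereas the other 3 collagen-rich tumours lie at -0.11 to 0.40 and 0.51 to 1.24.

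Over all 12 tumours, the genes whose pattern was most like the score were Serpinf1 (Pearson r = 0.980), Pcolce (0.978), Rcn3 (0.977), Foxs1 (0.974) and Mxra8 (0.974), as a description over 12 tumours with T176 far from the rest. Serpinf1, a secreted serpin also known as PEDF, measured 2.54, 0.88, -0.58 and -0.44 in T176, T646, T221 and T372, -2.50 to -1.16 in the middle tumours and -3.23 to -3.00 in the collagen-poor tumours. Rcn3 is a chaperone of the endoplasmic reticulum, Foxs1 a forkhead factor and Mxra8 a matrix-associated adhesion protein, and they measured 2.31, 1.69 and 2.66 in T176. The most opposite patterns belonged to Kit (-0.922), Clmn (-0.921), Pdcd2 (-0.915), Nipsnap1 (-0.899) and Slc5a9 (-0.898).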

How the data were processed

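Tumour RNA (Cy5) was hybridised with a common mouse reference RNA (Cy3) on 14 arrays of 12 tumours, per the labels. The deposited table holds one log2 value per probe and array, as made by the authors. The tumour-over-reference direction follows the dyes, base 2 was inferred from the values, while the sources used here do not state the scanner, background correction or normalization. Array medians of 0 to 0.018 showed centring per array. Of 22575 probes, 18658 had 1 symbol in the platform annotation (30 had several, 3887 none). Symbols were updated through RefSeq (GRCm38.p6; 18445 probes matched by gene identifier, 24 by accession, 189 kept as given), and probes were averaged into 16879 genes, then arrays of a tumour. No depth or spot brightness accompanies the ratios, so the number of arrays limits precision.

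Groups were fitted with limma 3.58.1 (R 4.3.3, lmFit and eBayes; prior 2.64 degrees of freedom, SD 0.346) on 8 tumours, with Benjamini-Hochberg adjustment over the 16875 genes outside the score. On simulated data for 4 against 4 tumours (16875 genes), this recovered 76% of genes shifted by 2 and 95% shifted by 4, with 12 false calls. The simulated errors were normal and independent between genes, with no outlying tumour and no groups chosen by a score. These figures therefore do not measure recovery in the real tumours. A list level is the mean over its genes of the value minus the gene's 12-tumour mean. The scored genes and the 31 lists were chosen with earlier results of these data known. Genes named are the scored ones, the 12 largest differences each way among called genes (filled up with separated genes), up to 4 called or else the 2 largest members of each list, a fixed set of cell type genes, and the 5 highest and 5 lowest correlations with the score. Genes named for their values without T176, and some list members, were chosen after their values were seen. Alternatives changed the tumours compared, the score, arrays, probes, normalization, prior and threshold. The other steps ran in Python 3.11.15 (numpy 2.4.6; pandas 2.3.3; matplotlib 3.10.9).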

Additional observations from a re-analysis of the deposited data

Results flagged for a closer look

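Within each group of 4 tumours, a tumour was singled out for a gene when its distance to the nearest other tumour took up more of the group's range than Dixon's 95% critical value allows, which chance alone does in about 1 of 20 groups. Over 296 groups checked (148 named genes), 32 met this. Many of the genes were chosen for extreme differences or for their values without T176, which favours genes in which T176 stands apart. The rate of 1 in 20 is therefore no benchmark for the number found. No explanation was weighed.

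T176 stood above the other 3 collagen-rich tumours for Omd (4.60), Fmod (4.12), Ibsp (5.73), Smarcd3 (0.72), Mxra8 (2.66), Col24a1 (3.75), Tnc (3.28), Ctsk (3.87), Metap1d (0.78) and Srpx2 (3.21). It stood below them for Fstl1 (-1.96), Clic6 (-0.72), Nipsnap1 (-2.51), Itga6 (-2.14), Retnla (-3.47), F13a1 (-4.70), Rarres2 (-1.37), Fbln2 (-3.56) and Lyz2 (-1.12). T646 stood apart for Pdk1 (-1.63) and Ccn2 (2.37).

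Among the collagen-poor tumours, T2134 stood apart for the squamous and calprotectin genes Crct1 (-2.37), S100a9 (0.38) and S100a8 (2.06), on the high side, and for Col9a3 (-0.53) and Sox10 (2.45), on the low side. T920 was high for Cldn5 (-1.63), Car3 (-3.05) and Retnla (-0.72). T172 was low for Elf5 (3.75) and Cpxm1 (-2.01) and high for Krt18 (2.92).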

How the results depend on the processing

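The 14 genes called higher kept their sign in all 24 settings tried, but the counts moved. Leaving out 1 of the 8 tumours gave 0 to 155 genes called higher and 0 to 10 lower, with 2.39% to 4.27% of genes higher and 0.818% to 2.29% lower separated. Genes called higher and lower were 99 and 10 after ranking the 11 tumours other than T176 again, 68 and 11 when the middle tumours joined the fit, 115 and 85 for the 6 highest against the 6 lowest, and 443 and 200 with the score as a covariate (276 and 11 without T176). They were 0 and 0 for the 3 highest against the 3 lowest and after quantile normalization, which itself put T135 in place of T372 and T55 in place of T284. A robust prior gave 8 and 0, and an adjusted p under 0.01 gave 0 and 0. In alternatives chosen after seeing the data, T135 in place of T372 gave 9 and 2, T55 in place of T284 gave 0 and 0, and first arrays without T176 gave 116 and 2. The share of separated genes moved by over 1.5 times to 0.711% higher and 0.35% lower (6 against 6), 1.31% higher (quantile), 1.46% lower (3 against 3), 0.569% lower (T55), 3.88% higher (first arrays without T176), and 0.551% and 0.113% at a difference of at least 2. The score without Fap or with scaled genes, 1 probe per gene, first arrays alone and genes on all arrays kept the call counts within 1.5 times.

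Among named genes, the sign of the difference turned for 14, none of them called with 8 tumours. Leaving out 1 tumour gave -0.15 to 0.37 for Acta2 (-0.07 without T176, -0.08 without T646), -0.36 to 0.84 for Adipoq, -0.06 to 2.12 for Trp63, -0.06 to 1.09 for Tgfb1, -1.22 to 0.29 for Col11a1 and -2.33 to 0.34 for Comp. Quantile normalization gave -0.54 for Actn3, -0.11 for Adipoq, -0.43 for Cd79b, 0.55 for Col11a1, 0.84 for Comp, -0.41 for Myoz1 and -0.37 for Retnla. The score as a covariate gave -0.05 for Adipoq, 0.35 for Col11a1, -0.01 for Col14a1, -0.16 for Fbln2, 0.0 for Metap1d, -0.07 for Retnla and -0.20 for Trp63, and without T176 0.33 for Comp and -0.01 for Ibsp. The 3 highest against the 3 lowest gave 0.50 for Col11a1, 1.03 for Comp and -0.10 for Trp63, and 6 against 6 gave -0.10 for Retnla. T55 in place of T284 gave -0.10 for Actn3, 0.69 for Col11a1 and 0.75 for Comp. First arrays without T176 gave -0.07 for Acta2 and -0.23 for Tgfb1, and ranking again without T176 gave -0.11 for Tgfb1. The cause of these changes was not tested. The ratios carry no spot brightness, so no limit for dim spots could be set.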

Other observations

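The 4 middle tumours entered neither group of the main comparison. For 358 of the 387 genes higher without overlap, and for 149 of the 160 lower ones, the mean of the middle tumours lay between the means of both groups. T135, whose score was next to that of T372, had a fibroblast list level of 0.28, below all collagen-rich tumours, and a macrophage level of 0.81, above that of T221 (0.51) and T372 (0.58). T2023, T160 and T55 stood at -0.45 to -0.14 for the fibroblast list.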
